A study of Mus with 8 samples.

Results

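The genes of cholesterol synthesis, uptake and efflux were followed in B16F10 cells, an established mouse melanoma line, with and without the compound Butyroside D. Members were the transcript clusters whose gene symbol equals a listed name, and 33 of 35 listed genes were found this way among 22206 transcript clusters. Of these, 20 belong to synthesis and its sterol sensing, 10 to the liver X receptors (LXR) and efflux, and 3 to sterol movement. Srebf1 shares its transcript cluster with the microRNA gene Mir6922, and Tm7sf2 shares its cluster with Vps51, so neither has a value here.

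The control group was 4 samples of B16F10 cells kept in medium for 48 h, and the treated group was 4 samples kept for 48 h with 2 µM Butyroside D, each on 1 Mouse Clariom S array. In the control samples the treatment note mentions 0.2 µM of the compound as well as none, but titles and source fields speak of medium alone, and the samples were taken as controls. No genetic change separates the groups, and all arrays come from the same line. Whether the samples were separate cultures is not stated in the labels, and p-values therefore cover only the spread among these arrays, part of which may be technical.

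Cells hold their free cholesterol within narrow limits through opposing transcription factors. When sterol in the endoplasmic reticulum is low, SREBP2, the product of Srebf2, is released and drives the enzymes that build cholesterol from acetyl-CoA through mevalonate, squalene and lanosterol. When oxidised sterols accumulate, the LXR proteins, paired with retinoid X receptors, drive transporters that export cholesterol to lipoproteins. Cholesterol taken up by endocytosis leaves the lysosome through the paired proteins NPC1 and NPC2.

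The arrays carried the melanocyte identity of the line. All 7 melanocyte markers (among them Tyr, Dct and Sox10) had log2 signals between 12.98 and 19.31 in every array. Of 31 listed markers of fibroblasts, keratinocytes, macrophages, lymphocytes, endothelium and hepatocytes, 30 were measured, none exceeded 6.63 in any array, and 5 had a mean above 5.17. That value is the highest median of the 23 background probe sets in any array and is taken here as the background level. Arrays 1 and 2 and arrays 3 and 4 of each group formed close pairs, which correlated at 0.997 to 0.998 over all transcript clusters, against 0.986 to 0.993 between other arrays. The background median was 5.17 and 5.07 in treated arrays 1 and 2 and between 4.69 and 4.95 in the other 6 arrays, and the part of this in the differences between treated pairs was not tested. In bulk RNA, fewer cells with a transcript and less transcript per cell cannot be told apart.

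No member passed the threshold of the main test. The largest difference was that of Npc2, which carries cholesterol inside the lysosome, at 1.77 times the control level. Next by p came Sqle, the squalene epoxidase, at 1.47 times. Limma called 0 of 33 members at an adjusted p under 0.05, where it called 0.117% of all transcript clusters. At an unadjusted p under 0.05 it gave 7 members, 5 higher and 2 lower, or 21.2%, beside 17.9% of all transcript clusters. In 6 members, or 18.2%, the 4 treated arrays did not overlap the 4 control arrays, beside 12.9% of all transcript clusters, so both shares lay near their background. Of these, 4 were higher (6.98% of all transcript clusters) and 2 lower (5.93%). The close pairs make the arrays of a pair near copies. Taking the pair as a random block, limma again called 0 members and gave 1, Npc2, at an unadjusted p under 0.05, where 4.01% of all transcript clusters reached it. For every member the random block gave a larger SE. Unless stated otherwise, the SEs, intervals and p-values below come from the main fit. That fit counts the 4 arrays of a group as independent, so its intervals are too narrow where paired arrays are near copies. Without treated arrays 3 and 4, limma without a block called 10 members (30.3%), where it called 24.8% of all transcript clusters, and without treated arrays 1 and 2 it called 0, where it called 3.97%.

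Synthesis genes and LXR genes were then set beside all transcript clusters. The median log2 change was 0.08 over the 20 synthesis genes, of which 12 were positive, 0.19 over the 10 LXR and efflux genes, of which 7 were positive, and 0.01 over all transcript clusters, of which 51.5% were positive. With the treated pairs apart, the LXR and efflux median against the 4 controls was 0.39 for arrays 1 and 2 and 0.03 for arrays 3 and 4. The synthesis median was 0.10 and 0.11, and that of all transcript clusters 0.04 and -0.01. Over transcript clusters above background in a group, the median was 0.02 over all arrays, and -0.0046 and 0.0543 by treated pair. In treated arrays 1 and 2 the highest LXR and efflux values were those of Nr1h2 (1.29), Pltp (1.09) and Lpcat3 (0.82), while the transporter Abca1 was at -0.01. That pair lay above all 4 controls in 5 of the 10 genes and below all in 1, beside 27.4% and 23.0% of all transcript clusters. Smpdl3a, at 0.44 in that pair, lay inside the control range. Abcg1, counted in the medians by pair, was below background in every array. With dim transcript clusters left out, which drops Abcg1, the LXR and efflux median over all arrays was 0.12. Leaving out control array 1 alone turned the synthesis median to -0.05, and leaving out treated array 3 raised the LXR and efflux median to 0.35.

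**Figure D1:**
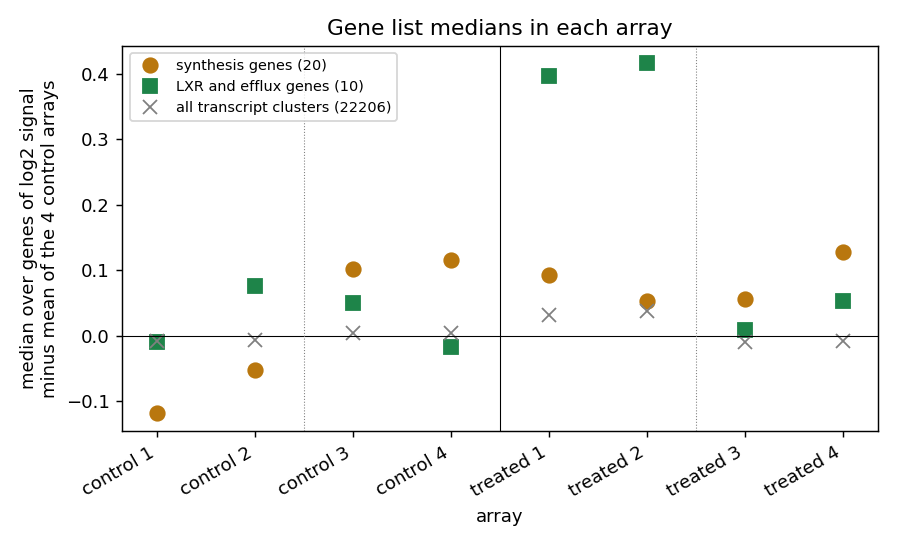
Median over the genes of each list of the log2 signal minus the mean of the 4 control arrays (vertical axis), for each of the 8 arrays (horizontal axis), with dotted lines between close pairs. The LXR and efflux median was 0.40 and 0.42 in treated arrays 1 and 2 and at most 0.08 in the other 6 arrays, while the synthesis median lay between -0.12 and 0.13 throughout.

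The control pairs differed as well. Synthesis genes were lower in control arrays 1 and 2 than in control arrays 3 and 4 for 15 of 20 members. Their median difference was -0.19, while 49.1% of all transcript clusters had a positive difference. Of transcript clusters above background in a group, 44.4% had a positive difference, with a median of -0.06. Among the 33 members, 14 had control pairs at least 0.5 apart on the log2 scale, beside 21.0% of all transcript clusters. Treated pairs were at least 0.5 apart in 10 members, beside 34.7%. Of transcript clusters above background in a group, these shares were 23.3% for control pairs and 40.9% for treated pairs. For 4 members, Mvd, Idi1, Srebf2 and Lpcat3, the treated pairs lay on opposite sides of all 4 control arrays, a state of 9.39% of all transcript clusters. Treated arrays 1 and 2 lay above all controls in 14 members (27.4% of all transcript clusters) and below all in 5 (23.0%). Treated arrays 3 and 4 lay above all controls in 6 members (18.9%) and below all in 7 (19.3%).

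**Figure D2:**
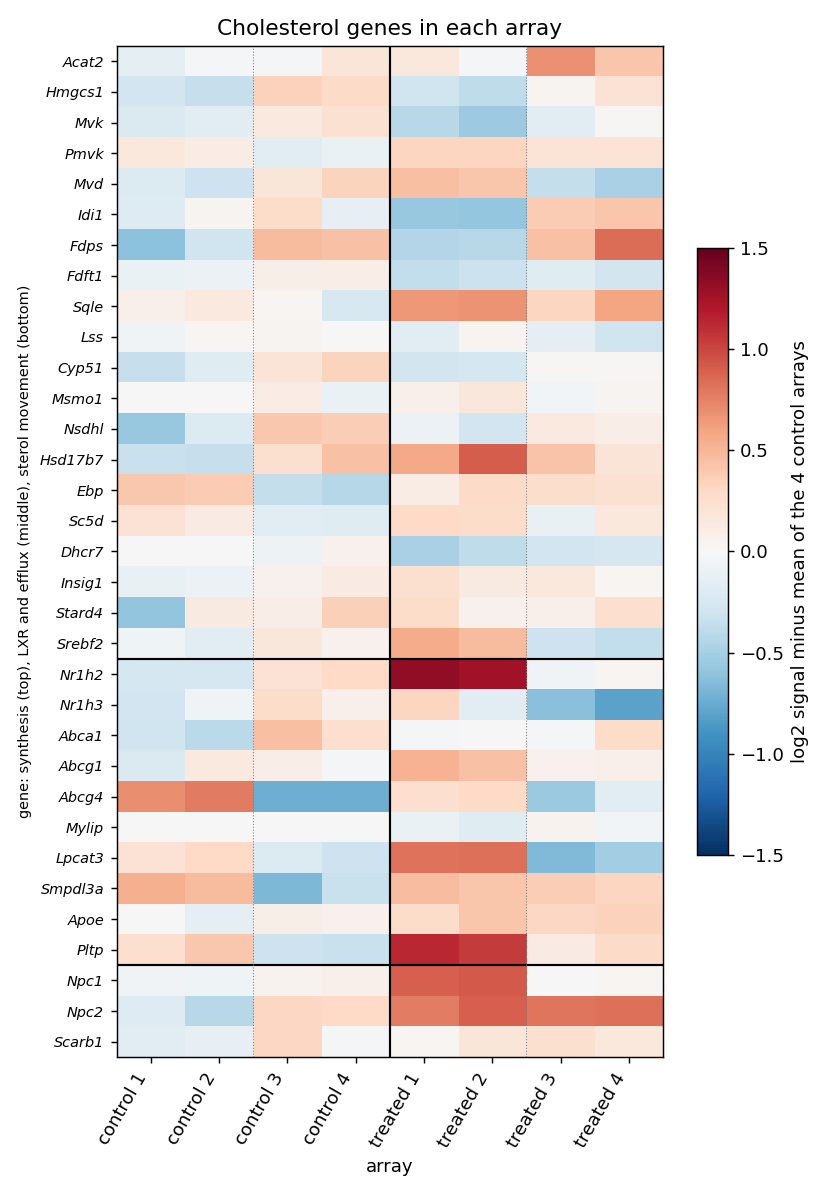
Log2 signal of each of the 33 genes (rows) in each of the 8 arrays (columns), as the difference from the mean of the 4 control arrays (colour), with horizontal lines between the 3 lists and dotted lines between close pairs. Sqle, Apoe and Npc2 are above all controls in all 4 treated arrays, while Nr1h2, Pltp and Npc1 reach their highest values in treated arrays 1 and 2.

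The mevalonate enzymes, which turn acetyl-CoA into the isoprene units of cholesterol, showed no common direction. Of 7 members 4 were positive, with a median log2 change of 0.00. Hmgcs1, which makes HMG-CoA, was at 11.91, 11.86, 12.55 and 12.50 in control arrays 1 to 4 and at 11.91, 11.82, 12.25 and 12.42 in treated arrays 1 to 4. Its arrays 1 and 2 were the lower pair in both groups and the groups overlapped, with a log2 change of -0.11 ± 0.21 (SE) and a 95% interval of -0.57 to 0.36. Idi1, which isomerises isopentenyl diphosphate, was at 8.03, 8.27, 8.50 and 8.11 in controls and at 7.65, 7.65, 8.61 and 8.65 in treated arrays. Treated arrays 1 and 2 were thus below every control and treated arrays 3 and 4 above every control, at -0.57 and 0.40 against the control mean.

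Mvd, which decarboxylates mevalonate diphosphate, had the opposite order of pairs. Its treated pairs lay at 0.43 (arrays 1 and 2) and -0.42 (arrays 3 and 4), so that its overall log2 change was 0.00 ± 0.25 (SE). Fdps, which joins isoprene units into farnesyl diphosphate, lay at -0.43 and 0.64, and its control pairs were 0.92 apart in the same order, from 6.09 in control array 1 to 7.19 in control array 3. Acat2, the cytosolic thiolase of the first step, lay at 0.07 and 0.55.

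The mevalonate kinases were close to background. Pmvk was at 4.86, 4.81, 4.53 and 4.61 in controls and at 5.02, 5.03, 4.91 and 4.91 in treated arrays. Its groups did not overlap, but all 8 values were below 5.17, so no size is given. Mvk had a control mean of 5.27 and a treated mean of 4.99, the latter below background.

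Along the squalene and sterol branch, no enzyme passed the threshold. Sqle, which oxidises squalene and is a rate-limiting step of the pathway, was at 10.40, 10.47, 10.35 and 10.08 in control arrays 1 to 4 and at 10.97, 11.00, 10.65 and 10.91 in treated arrays 1 to 4. All 4 treated arrays were above all 4 controls, in both pairs. The means were 10.32 ± 0.17 and 10.88 ± 0.16 (SD, n = 4 each), a log2 change of 0.56 ± 0.14 (SE) with a 95% interval of 0.25 to 0.87 and an adjusted p of 0.103 (limma, Benjamini-Hochberg).

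Fdft1, the squalene synthase that supplies Sqle with its substrate, was at 9.96, 9.97, 10.14 and 10.16 in controls and at 9.69, 9.73, 9.87 and 9.78 in treated arrays. Every treated array was below every control, and the log2 change between the group means was -0.29 ± 0.12 (SE), with an adjusted p of 0.245 (limma). Dhcr7, which reduces the last double bond in a late branch of the pathway, was at 9.66, 9.65, 9.58 and 9.71 in controls and at 9.17, 9.27, 9.36 and 9.40 in treated arrays. This group too was without overlap, with a log2 change of -0.35 ± 0.12 (SE) and an adjusted p of 0.178 (limma).

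Hsd17b7, a ketosteroid reductase of sterol demethylation, was at 6.25, 6.23, 6.82 and 7.01 in controls and at 7.146, 7.479, 7.001 and 6.774 in treated arrays. Treated arrays 1 and 2 were above every control and treated arrays 3 and 4 lay within the control range. Its log2 change was 0.53 ± 0.22 (SE), with an adjusted p of 0.252 (limma). Its partners in removing methyl groups, Msmo1 and Nsdhl, had changes of 0.06 ± 0.12 and -0.03 ± 0.23 (SE). For Nsdhl the controls alone ranged from 9.61 to 10.59.

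Cyp51, which demethylates lanosterol, was at 11.98, 12.14, 12.52 and 12.66 in controls and at 12.04, 12.07, 12.34 and 12.34 in treated arrays. The treated values lay inside the control range, with a log2 change of -0.13 ± 0.18 (SE) and a 95% interval of -0.52 to 0.26. Lss, which closes the sterol rings, differed by -0.14 ± 0.12, Ebp, a sterol isomerase, by 0.22 ± 0.21, and Sc5d, a sterol desaturase, by 0.15 ± 0.15 (log2 change ± SE). The control arrays of Ebp formed pairs 0.79 apart, wider than its treated range of 8.85 to 9.03. Over the 10 measured enzymes from Fdft1 to Dhcr7, 5 were positive, the median log2 change was 0.01, and 2 were higher and 2 lower at an unadjusted p under 0.05 (9.84% and 8.07% of all transcript clusters).

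**Figure D3:**
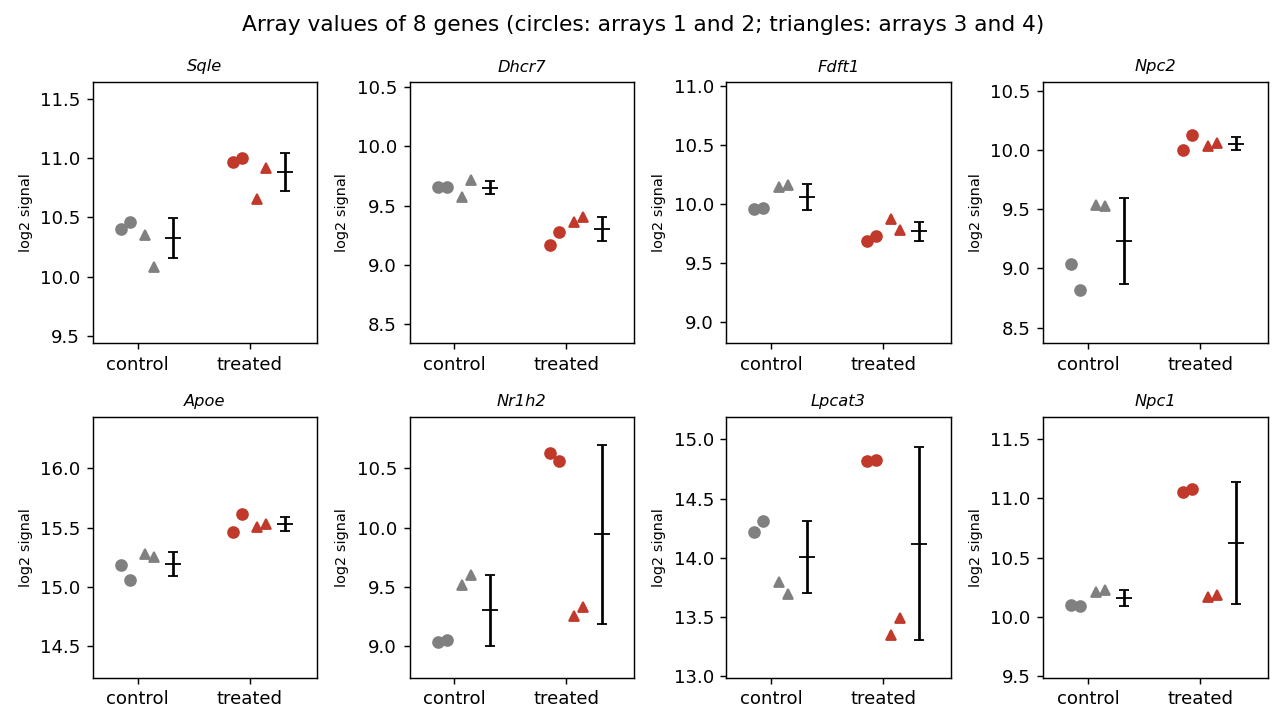
Log2 signal (vertical axis) of 8 genes in the 4 control and 4 treated arrays, with circles for arrays 1 and 2, triangles for arrays 3 and 4, and the group mean with its SD beside the points. The panels share the same height in log2 units but not the same starting value. Sqle, Dhcr7, Fdft1, Npc2 and Apoe show no overlap between groups, while in Nr1h2 and Npc1 treated arrays 1 and 2 stand apart from the other 6.

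All 3 sterol-sensing genes had a positive log2 change, with a median of 0.14, and none passed the threshold. Insig1, which holds the SREBP complex in the endoplasmic reticulum when sterol is ample and is itself an SREBP target, was at 10.65, 10.67, 10.82 and 10.88 in controls and at 10.99, 10.88, 10.91 and 10.78 in treated arrays. The groups overlapped through treated array 4, and the log2 change was 0.14 ± 0.12 (SE). Stard4, a carrier of sterol between membranes, was at 7.42, 8.14, 8.11 and 8.37 in controls and at 8.28, 8.07, 8.08 and 8.26 in treated arrays. Control array 1 was its lowest value, and without it the log2 change went from 0.16 to -0.03.

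Srebf2 was at 13.97, 13.88, 14.21 and 14.11 in controls and at 14.60, 14.52, 13.73 and 13.68 in treated arrays. Treated arrays 1 and 2 were above every control, with their mean 0.52 over the control mean, and treated arrays 3 and 4 were below every control, at -0.34. The overall log2 change, 0.09 ± 0.23 (SE), is therefore the mean of differences of opposite sign.

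Among the LXR receptors, Nr1h2, which encodes the broadly expressed LXR beta, had the larger value in 1 treated pair. It was at 9.04, 9.05, 9.52 and 9.60 in controls and at 10.63, 10.56, 9.25 and 9.33 in treated arrays. Treated arrays 1 and 2 were above every control, and treated arrays 3 and 4 lay between the control pairs. Against the control mean the pairs were at 1.29 and -0.01, and the log2 change over all arrays was 0.64 ± 0.33 (SE), with an adjusted p of 0.339 (limma). A gap of this size between the treated pairs, 1.30, was reached by 2.82% of all transcript clusters. Nr1h3, which encodes LXR alpha, was near background, with a control mean of 5.36 and a treated mean of 5.04.

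None of the 3 LXR-driven transporters passed the threshold. Abca1, which loads cholesterol onto lipid-poor apolipoprotein, was at 7.55, 7.45, 8.30 and 8.10 in controls and at 7.83, 7.85, 7.82 and 8.12 in treated arrays. All treated values lay inside the control range, with a log2 change of 0.06 ± 0.20 (SE) and a 95% interval of -0.39 to 0.50. Abcg1, which exports sterol to mature lipoproteins, was at 4.04, 4.41, 4.35 and 4.23 in controls and at 4.77, 4.70, 4.31 and 4.33 in treated arrays. Treated arrays 1 and 2 were above every control and arrays 3 and 4 within the control range, but all 8 values were below background, so no size is given. Abcg4, a related transporter, ranged from 5.64 to 7.15 in controls, with control pairs 1.47 apart, and from 5.82 to 6.68 in treated arrays.

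Mylip, the ubiquitin ligase that limits lipoprotein uptake when LXR is active, was at 10.99, 11.00, 11.01 and 10.99 in controls and at 10.91, 10.82, 11.05 and 10.95 in treated arrays. Its controls were the tightest of the members, with an SD of 0.01, and its log2 change was -0.07 ± 0.11 (SE), with a 95% interval of -0.32 to 0.18. Lpcat3, an acyltransferase that places polyunsaturated chains in phospholipids, ranged from 13.70 to 14.31 in controls and was at 14.81 and 14.83 in treated arrays 1 and 2 and at 13.35 and 13.49 in treated arrays 3 and 4. Its treated pairs were 1.40 apart, the widest gap among the members, which 2.00% of all transcript clusters reached. Smpdl3a, a phosphodiesterase that LXR induces in human macrophages, had control arrays from 9.52 to 10.72 and treated arrays from 10.51 to 10.66.

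The lipoprotein partners of efflux were above the control mean in both treated pairs. Apoe, the apolipoprotein that carries exported cholesterol, was at 15.18, 15.05, 15.28 and 15.25 in controls and at 15.47, 15.61, 15.50 and 15.53 in treated arrays. The groups did not overlap and the treated pairs were alike, at 0.35 and 0.33, for a log2 change of 0.34 ± 0.12 (SE, 95% interval 0.08 to 0.60) and an adjusted p of 0.186 (limma). Pltp, which transfers phospholipid between lipoproteins, was at 7.74, 7.89, 7.17 and 7.15 in controls and at 8.61, 8.54, 7.60 and 7.77 in treated arrays. Only treated arrays 1 and 2 were above every control, and the log2 change was 0.65 ± 0.27 (SE), with an adjusted p of 0.252 (limma).

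Genes of sterol movement held the member with the smallest p. Npc2, the soluble lysosomal carrier, was at 9.04, 8.82, 9.54 and 9.53 in control arrays 1 to 4 and at 10.002, 10.126, 10.034 and 10.058 in treated arrays 1 to 4. All treated arrays were above all controls and close to each other, while the control pairs were 0.60 apart. The means were 9.23 ± 0.36 and 10.05 ± 0.05 (SD, n = 4 each), a log2 change of 0.82 ± 0.18 (SE) with a 95% interval of 0.43 to 1.22 and an adjusted p of 0.0778 (limma, Benjamini-Hochberg). With the pair as a random block its SE was 0.26 and its unadjusted p 0.0086.

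Npc1, the membrane protein that accepts cholesterol from NPC2, was at 10.10, 10.09, 10.21 and 10.23 in controls and at 11.05, 11.08, 10.16 and 10.18 in treated arrays. Here treated arrays 1 and 2 stood above every control, with their mean 0.91 over the control mean, and treated arrays 3 and 4 were within the control range. Over all arrays the log2 change was 0.46 ± 0.23 (SE), with an adjusted p of 0.317 (limma). Scarb1, a receptor for selective uptake of cholesterol from high-density lipoprotein, differed by 0.15 ± 0.14 (SE), with overlapping groups.

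**Figure D4:**
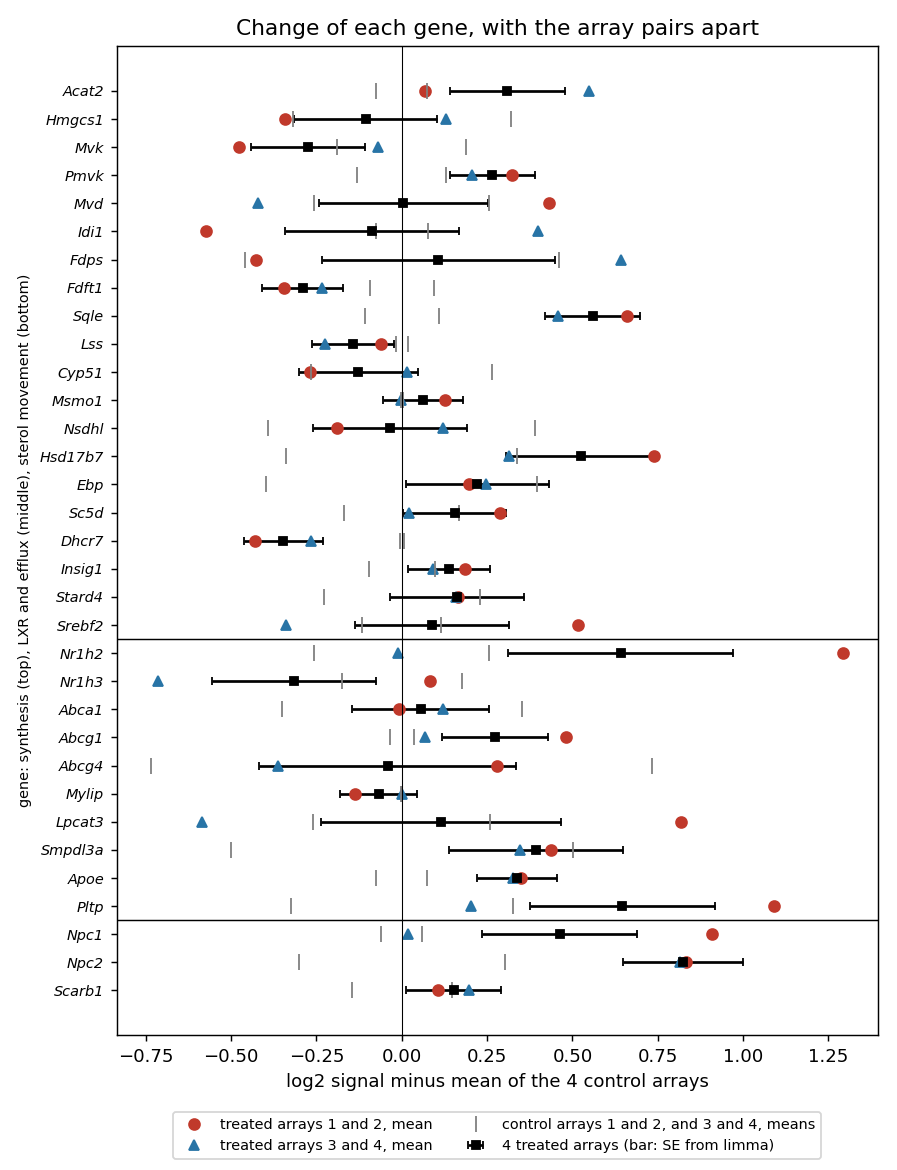
Difference in log2 signal from the mean of the 4 control arrays (horizontal axis) for each of the 33 genes (vertical axis), as the mean of treated arrays 1 and 2 (circles), of treated arrays 3 and 4 (triangles) and of all 4 treated arrays (squares, with the SE from limma), beside the means of the control pairs (grey ticks). The treated pairs nearly coincide for Npc2, Apoe and Stard4 and lie on opposite sides of the controls for Mvd, Idi1, Srebf2 and Lpcat3.

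Other genes of sterol and isoprenoid handling were read as a second list. Of 44 listed genes 43 were measured, 28 had a positive log2 change with a median of 0.17, and limma called 0 of them. By treated pair the median was 0.10 for arrays 1 and 2, with 29 positive, and 0.02 for arrays 3 and 4, with 23 positive (53.5%, beside 48.7% of all transcript clusters). Among transcript clusters above background in a group, 57.2% were positive in treated arrays 3 and 4. Their medians were -0.0046 for arrays 1 and 2 and 0.0543 for arrays 3 and 4. For 18 of the 43 the treated pairs were at least 0.5 apart, beside 34.7% of all transcript clusters and 40.9% of those above background. At an unadjusted p under 0.05, 9 were higher (9.84% of all transcript clusters) and 0 lower (8.07%). The smallest p belonged to Dhdds, a subunit of the enzyme that extends isoprene chains for dolichol, at 9.45, 9.62, 9.65 and 9.56 in controls and 10.32, 10.17, 10.21 and 10.27 in treated arrays. This was a log2 change of 0.67 ± 0.11 (SE), with no overlap between groups and an adjusted p of 0.0611 (limma).

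Rxrb and Rxra, which encode retinoid X receptors that pair with LXR, followed different patterns. Rxrb was at 8.18, 8.07, 7.90 and 7.96 in controls and at 8.73, 8.63, 8.81 and 8.68 in treated arrays, a log2 change of 0.68 ± 0.12 (SE) with an adjusted p of 0.0624 (limma). Rxra was between 9.56 and 9.66 in controls, at 11.02 and 10.99 in treated arrays 1 and 2 and at 9.76 and 9.84 in treated arrays 3 and 4, with a log2 change of 0.78 ± 0.29 (SE) and an adjusted p of 0.210 (limma). Rxrb was thus above its controls to a like degree in both pairs, at 0.65 and 0.72, and Rxra mainly in the first, at 1.38 and 0.18. Acat1, the mitochondrial thiolase, had a log2 change of 0.58 ± 0.14 (SE) with no overlap between groups and an adjusted p of 0.0941 (limma).

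A comparison that the authors deposited beside the array values gives other numbers for the treated group. In the authors' deposited table the control average lay within the range of the 4 control arrays for all 33 members, to a tolerance of 0.01. It was outside that range for 0 of 22206 transcript clusters in the authors' deposited table. In the authors' deposited table the treated average was outside the range of the 4 treated arrays for 14 of the 33 members, 7 below and 7 above, beside 41.2% of all transcript clusters. The control average in the authors' deposited table was a median of 0.0059 from the mean of the 4 control arrays over the members. A treated average outside the range of the 4 treated arrays cannot be the mean of their deposited values. No source used here names the arrays behind the authors' deposited table. Since the control arrays may be shared with the test above, the values of that table are given with no measure of likeness.

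Of the 33 members, 2 had an FDR under 0.05 in the authors' deposited table, beside 1.56% of all transcript clusters, and both were synthesis enzymes that were higher (0.896%). Sqle had a control average of 10.40 and a treated average of 11.04, a fold of 1.56 with an FDR of 0.029 in the authors' deposited table. Msmo1, an oxidase of sterol demethylation, had averages of 8.25 and 8.85, a fold of 1.52 with an FDR of 0.0448 in the authors' deposited table. On the arrays themselves Msmo1 was at 8.26, 8.25, 8.36 and 8.15 in controls and at 8.33, 8.43, 8.21 and 8.30 in treated arrays, so that every treated array was below that treated average.

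Npc2, Fdps, Dhcr7, Apoe and Insig1 had an unadjusted p under 0.05 and an FDR between 0.0759 and 0.297 in the authors' deposited table, where 7 members, among them Sqle and Msmo1, reached that p beside 16.3% of all transcript clusters. Their log2 differences were 0.77 for Npc2, 0.76 for Fdps, -0.33 for Dhcr7, 0.29 for Apoe and -0.34 for Insig1 in the authors' deposited table. For Insig1 the treated average of 10.41 in the authors' deposited table was below every array of either group. For Npc1 the difference was -0.41 in the authors' deposited table, with a treated average of 9.75 that was likewise below all 8 arrays. By list, the median log2 difference was 0.10 over synthesis genes, with 11 of 20 positive, 0.23 over LXR and efflux genes, with 9 of 10 positive, and -0.03 over all transcript clusters in the authors' deposited table.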

How the data were processed

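RNA of 8 B16F10 samples was read on Mouse Clariom S arrays. Affymetrix Expression Console, Transcriptome Analysis Console and RMA are named in the submitters' processing notes, without versions. The deposited array values are log2 signals that reach 19.74. Whether differences on this scale are of the size that RMA alone would give was not checked. The authors' deposited table of the comparison holds log2 averages, a signed fold score (below 1 as negative inverses), a p-value and an FDR-adjusted p-value, per the file headers, from a test not named there. No coordinates are printed, because neither genome build nor annotation is given in the sources used here.

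After 6640 control probe sets were set aside, treated minus control was fitted over 22206 transcript clusters with limma 3.58.1 in R 4.3.3 (lmFit, eBayes, two-sided), with Benjamini-Hochberg adjustment over all of them and a threshold of 0.05. The test was checked on simulated data with 200 changed transcript clusters. The simulated arrays were independent and held no close pairs, so the check does not cover the effect of such pairs. Groups followed the sample titles. Members, lists and tests were chosen with earlier results of these data known. Values in every array are given for the 10 members with the smallest p and for fixed members of the pathway, and also for Msmo1 and Lpcat3, picked once their values were known. The other pathway list names the 4 genes with the smallest p. Alternatives were single arrays left out, scaling, blocks, pair means, a filter on dim transcript clusters and the variance model. A promoter search was not run. The number of arrays limits the precision.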

Additional observations from a re-analysis of the deposited data

Results flagged for a closer look

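Among 66 groups of 4 arrays (33 genes in 2 groups), 1 held an array whose gap to its neighbour exceeded Dixon's critical value. This was treated array 4 for Abca1, at 8.12 against 7.82 to 7.85 in treated arrays 1 to 3, with a gap of 0.886 of the range. Chance sets apart about 5% of such groups when the 4 arrays are independent, which close pairs are not. Without this array the log2 change of Abca1 went from 0.06 to -0.02.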

How the results depend on the processing

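The count of 0 members past the threshold held for all 33 genes, for synthesis genes and for LXR and efflux genes under all 15 alternatives fixed at the start, with 0 in every fit that left out 1 array. Limma called 0 of all 22206 transcript clusters with the replicate block, the random block and pair means. The same was so without any 1 control array and without treated array 1, 2 or 3. In those fits a count of 0 says nothing about the members in particular. The smallest adjusted p of any member lay between 0.0645 (dim transcript clusters left out, which also drops 2 members) and 0.999 (pair as a random block, where the correlation within pairs was 0.808). Leaving out treated arrays 3 and 4, chosen after seeing the data, gave 10 calls in all, 4 in synthesis and 4 in LXR and efflux genes. That fit called 24.8% of all transcript clusters. It gave 15 members at an unadjusted p under 0.05, against 7 in the main fit and 1 each with the pair as a random block and with means of pairs. Of all 22206 transcript clusters, 4769 were higher and 3785 lower at that p without treated arrays 3 and 4. The main fit gave 2184 and 1793, the random block 536 and 354, and pair means 318 and 253. With single arrays left out the member count was 5 to 9. It was 5 without treated array 1, beside 1588 and 1505 transcript clusters, and 9 without treated array 3, beside 2510 and 1891. The synthesis median was -0.0493 to 0.11 and the LXR and efflux median 0.14 to 0.35 with single arrays left out, and the latter was 0.0345 without treated arrays 1 and 2 and 0.39 without treated arrays 3 and 4. With dim transcript clusters left out the LXR and efflux median was 0.115, against 0.194 in the main fit, since Abcg1 leaves the list. With the replicate block, limma called 0 members and gave 7 at an unadjusted p under 0.05, where 2348 transcript clusters were higher and 1972 lower. Same-numbered arrays of both groups deviated together with correlations of 0.0696 to 0.0839 only, so the numbers were not taken as pairs, and not every array correlated best with its own number.

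With single arrays left out, the log2 change crossed 0 for 10 members, none of them past the threshold. The ranges were -0.22 to 0.0106 for Hmgcs1, -0.14 to 0.17 for Mvd, -0.26 to 0.0744 for Idi1, -0.14 to 0.29 for Fdps, -0.22 to 0.10 for Nsdhl, -0.0345 to 0.28 for Stard4, -0.0669 to 0.24 for Srebf2, -0.0787 to 0.21 for Abca1, -0.29 to 0.22 for Abcg4 and -0.12 to 0.37 for Lpcat3. Under the other 7 of these alternatives 0 members changed sign. Most of these could not turn a sign. The blocks, pair means, dim filter and variance model leave the log2 change of a member as it was. Only array median centring and quantile normalization could have turned one. Leaving out treated arrays 1 and 2 turned the sign of 10 members: Hmgcs1 (0.13), Mvd (-0.42), Idi1 (0.40), Cyp51 (0.0163), Msmo1 (-0.0017), Nsdhl (0.12), Srebf2 (-0.34), Nr1h2 (-0.0102), Mylip (0.0016) and Lpcat3 (-0.59). Leaving out treated arrays 3 and 4 turned that of 4: Fdps (-0.43), Nr1h3 (0.0826), Abca1 (-0.0091) and Abcg4 (0.28). With a treated pair left out, the log2 change is that of the remaining pair against the controls, and fewer samples enter the fit. Why the treated pairs differ was not tested. Genes near the background level of 5.17 (Pmvk, Mvk, Abcg1, Nr1h3) have no reliable size.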
